A study of Homo sapiens with 8 samples.

Results

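Regions of open chromatin that lay away from gene starts and held 2 or more GATA words near their summit were described in HUDEP-2 cells, an established human erythroid progenitor line. The word was AGATAA or TGATAA, read on either strand, and it had to lie within 100 bp of the summit. Peaks from 4 libraries were merged where they shared at least 1 bp, the region had to lie over 1 kb from any annotated start, and the window could not hold TGANTCA, the palindrome bound by AP-1. Of 43569 merged regions, 24937 were distal and 22060 of these held no AP-1 word. The rule left 2432 repeated-word regions, which were 5.58% of all regions and 11.0% of the distal regions without an AP-1 word. They were compared with 5509 single-word regions and with 14119 regions with no word. A further 347 distal regions with repeated words were set aside for an AP-1 word, and 379 because they lay within 1 kb of a start.

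GATA1 is the zinc-finger factor that drives erythroid differentiation, and it binds DNA at the sequence searched here, as does its relative GATA2. At many erythroid enhancers GATA1 sits in a complex with TAL1, LMO2 and LDB1, in which TAL1 contacts an E-box a short distance upstream of the GATA core. LDB1 can join with itself and so links DNA-bound complexes to each other. Stem cell factor (SCF) is the ligand of the receptor tyrosine kinase Kit, which supports the survival and expansion of erythroid precursors.

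Accessibility was measured by ATAC-seq, in which the Tn5 transposase inserts sequencing adapters into open DNA. All cells carried a control guide RNA (sgControl), were serum-starved for 5 h, and then received 50 ng/ml SCF or phosphate-buffered saline (PBS) for 1 h, with 2 libraries of 50000 cells per treatment. The 4 samples with a guide against EGR1 were not analysed here. The lists held 30240 and 33616 peaks in PBS replicates 1 and 2 and 29269 and 33324 peaks in SCF replicates 1 and 2. Read totals are unknown from peak lists, and a site without a peak was below the threshold of its list. In bulk libraries, a less open site and fewer cells with the site open cannot be told apart. Promoters of 8 of 10 erythroid marker genes were open in all 4 libraries, while HBA1 and ALAS2 had a promoter peak in 1 library each. None of 3 hepatic markers had one. A promoter peak was also present in all 4 libraries at SPI1, CEBPA and CD14 of 7 myeloid markers and at ITGA2B of 5 megakaryocyte markers.

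The sequences below show how the words are laid out. They run along the forward strand of GRCh37 (hg19), from 12 bases before the first word to 12 bases after the last where the window allows. Capitals mark the GATA words, and TTATCA or TTATCT is a word on the reverse strand. The first 4 were chosen for the highest ranks or the most words, and the RUNX1 intron because it lies in a listed erythroid gene and holds 4 words.
RHAG upstream, chr6:49614149-49614272: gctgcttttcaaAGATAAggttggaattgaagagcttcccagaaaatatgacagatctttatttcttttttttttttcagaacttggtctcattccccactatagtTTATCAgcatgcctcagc
GRIN3A distal, chr9:104603301-104603360: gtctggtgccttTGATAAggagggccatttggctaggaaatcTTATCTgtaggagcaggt
EEF2K intron, chr16:22227742-22227819: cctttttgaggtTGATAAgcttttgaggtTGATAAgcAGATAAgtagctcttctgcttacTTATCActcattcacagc
SYNDIG1 intron, chr20:24623943-24624116: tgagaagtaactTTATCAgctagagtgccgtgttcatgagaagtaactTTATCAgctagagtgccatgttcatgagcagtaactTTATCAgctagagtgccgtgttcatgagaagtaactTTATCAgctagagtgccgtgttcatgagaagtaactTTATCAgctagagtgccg
RUNX1 intron, chr21:36280903-36281069: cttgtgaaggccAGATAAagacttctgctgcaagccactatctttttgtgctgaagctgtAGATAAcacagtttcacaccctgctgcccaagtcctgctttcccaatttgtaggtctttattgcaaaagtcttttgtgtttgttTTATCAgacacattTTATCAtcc

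The RHAG upstream region was the most accessible member. RHAG encodes the Rh-associated glycoprotein, which carries the Rh antigens on the red cell membrane. The region (chr6:49613716-49614708) lay between genes, 9.65 kb upstream of the RHAG start, and its words faced each other with starts 94 bp apart. Its percentile rank of fold enrichment, where 100 is the strongest peak of a library, was 99.9 and 99.7 with PBS and 99.6 and 99.9 with SCF. Fold enrichment, the fragment pileup at the summit over the local background, was 22.0, 20.3, 20.4 and 22.8 in the same order. The 4 libraries were alike here.

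Another 5 members made up the top 6 by mean rank. The GRIN3A distal region lay 102.3 kb upstream of the start of GRIN3A, a glutamate receptor subunit gene, and ranked 99.4, 99.8, 98.2 and 99.9 in PBS replicates 1 and 2 and SCF replicates 1 and 2. A region 90.9 kb upstream of COX7C, a gene for a cytochrome c oxidase subunit, ranked 99.6, 98.6, 98.5 and 99.3. The remaining members of this set lay upstream of TP53BP2, in an intron of the long non-coding RNA MIR3681HG and in an intron of CABCOCO1, with mean ranks of 97.7, 97.6 and 96.4. In all, 71 members called in every library had a mean rank of 90 or more.

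The members with the most words did not share a level of accessibility. An intron of EEF2K, the gene for the kinase of elongation factor 2, held 4 words at steps of 17, 8 and 23 bp from start to start, and ranked 94.2 and 93.7 with PBS and 96.2 and 96.8 with SCF. The SYNDIG1 intron held 5 words at a constant step of 36 bp, and the sequence printed above shows that a longer unit is repeated with each word. It was called with PBS only, at ranks of 30.01 and 23.9, and in neither SCF library. Another region with 5 words, in an intron of OARD1, was called in PBS replicate 1 at rank 21.8 and in SCF replicate 2 at rank 21.5.

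In an intron of MTSS1, whose product binds actin, 5 words were found, and the region ranked 63.5 and 69.9 with PBS against 40.7 and 47.9 with SCF. Both SCF values were below both PBS values, with a log2 difference in fold enrichment of -0.49 ± 0.20 (SE) that did not pass the test over all regions (limma, adjusted p = 0.688). A 4-word region on chromosome X, in an intron of a gene without a symbol, had a mean rank of 93.6, and an intron of CEMIP2, the gene of a cell-surface hyaluronidase, had a mean rank of 93.2. The CEMIP2 intron ranked 97.5 and 98.6 with PBS and 81.2 and 95.7 with SCF, so the groups did not overlap, but the SCF replicates differed from each other by more than SCF replicate 2 did from PBS.

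Accessibility was higher in regions with repeated words than in regions with a single word in every library. The median rank of repeated-word regions was 47.2 and 49.5 with PBS and 48.4 and 50.3 with SCF. Single-word regions stood at 39.9, 41.1, 40.9 and 41.8, and regions with no word at 32.5, 32.7, 31.6 and 32.6. The lowest repeated-word median was above the highest single-word median. The difference between repeated- and single-word regions was 7.91 ± 0.556 rank points (SD, n = 4 libraries) and was positive in 4 of 4 (two-sided exact sign-flip permutation p = 0.13, the smallest this design allows). As fold enrichment, the repeated-word median was higher by 0.685 and 0.734 with PBS and by 0.743 and 0.873 with SCF.

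Rank increased further with the number of words, as the plot of rank by number of words shows. In the 1969 regions with 2 words the library medians ran from 47.2 to 49.3. In the 393 regions with 3 words they were 51.6 and 51.3 with PBS and 49.1 and 56.4 with SCF. In the 67 regions with 4 words they were 57.4 and 56.9 with PBS and 60.4 and 60.8 with SCF. Only 3 regions held 5 words, too few to place.

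**Figure D1:**
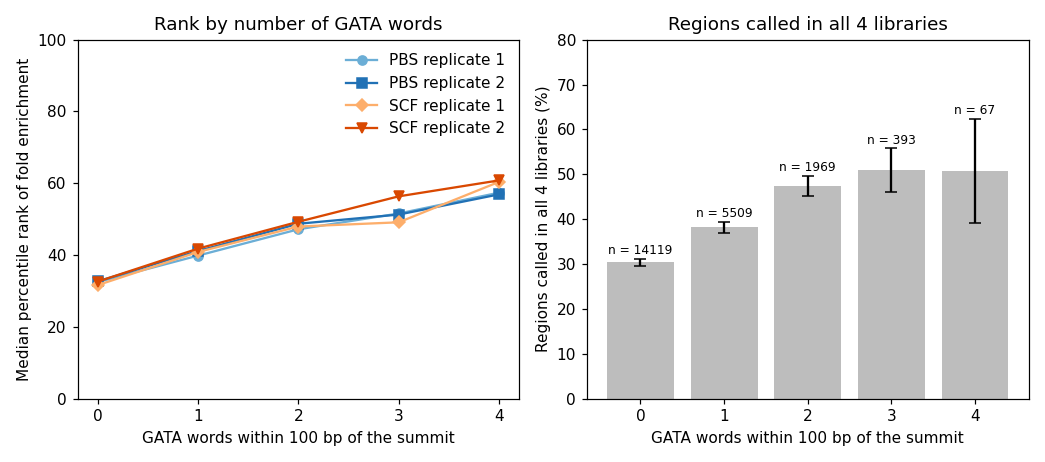
Left, the median percentile rank of fold enrichment within each library against the number of GATA words within 100 bp of the summit, with one line per library. Right, the percent of regions called in all 4 libraries with 95% Wilson intervals (counting error only) and the number of regions. All 4 lines rise from 31.6 to 32.7 with no word to 56.9 to 60.8 with 4 words.

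Repeated-word regions were also called more regularly. Of the 2432 members, 1169 were called in all 4 libraries (48.1%, 95% Wilson interval 46.1 to 50.1), compared with 38.2% of single-word regions (36.9 to 39.5) and 30.4% of regions with no word (29.7 to 31.2). These intervals cover counting error only, since regions of the same libraries are not replicates. A single library accounted for 619 members (25.5%), against 33.2% of single-word regions. Of these 619, the PBS replicates supplied 102 and 248 and the SCF replicates 55 and 214, more from the lists with more peaks.

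The windows with repeated words were richer in A and T, with a median GC content of 42.8% against 45.8% with a single word and 51.7% with none. Within 5 bins of GC content, repeated-word regions exceeded single-word regions in each bin, and the mean difference in median rank was 8.40 points. The excess in the share called in all 4 libraries was 9.89 percentage points without binning and 17.04 as the mean over GC bins. In the bin of lowest GC the shares were 36.6% and 29.0%, and in the next they were 51.6% and 36.7%. In the 4th bin 67.5% of the 194 repeated-word regions were called in all 4 libraries, compared with 45.6% of single-word regions. The bins of highest GC hold few members, 46 in the last.

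Members lay at a median of 9.77 kb from the nearest annotated start, single-word regions at 8.95 kb and regions with no word at 7.71 kb. Introns held 1589 members (65.3%, 95% Wilson interval 63.4 to 67.2), exons held 110 (4.52%) and 733 lay between genes (30.1%). Single-word regions were placed similarly, with 65.1% in introns, 5.34% in exons and 29.6% between genes. Just inside the distance limit, the 112 members at 1001 to 1500 bp from a start had a median mean rank of 33.7, and 101 repeated-word regions just outside it, at 501 to 1000 bp, had 32.1.

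The pairs of words showed a preference of orientation and of spacing. Of the 1969 regions with 2 words, 1080 (54.9%, 95% Wilson interval 52.6 to 57.0) had both on the same strand, 456 (23.2%, 21.3 to 25.1) had them back to back and 433 (21.99%, 20.2 to 23.9) had them facing each other. Words were said to face each other where the forward-strand word came first. Among windows that shared no sequence with another window, as defined below, 54.9% of 1840 pairs were on the same strand. Sequence repeated inside a single window is not found by that measure, and its part in the orientation was not tested. Pairs 31 to 60 bp apart, start to start, made up 33.3% of the regions, where even placement of 2 words in the window would give 23.6%. Pairs 101 to 195 bp apart made up 17.9% against 23.9%. Overlapping pairs 1 to 5 bp apart made up 1.17% against 5.05%. The letters of the word conflict at shorter overlaps, and all 23 of these pairs lay 5 bp apart. The even reference also counts the shorter distances, so this shortfall was set by the word and shows no preference. The summit itself sits near words, and its part in this spacing was not tested.

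**Figure D2:**
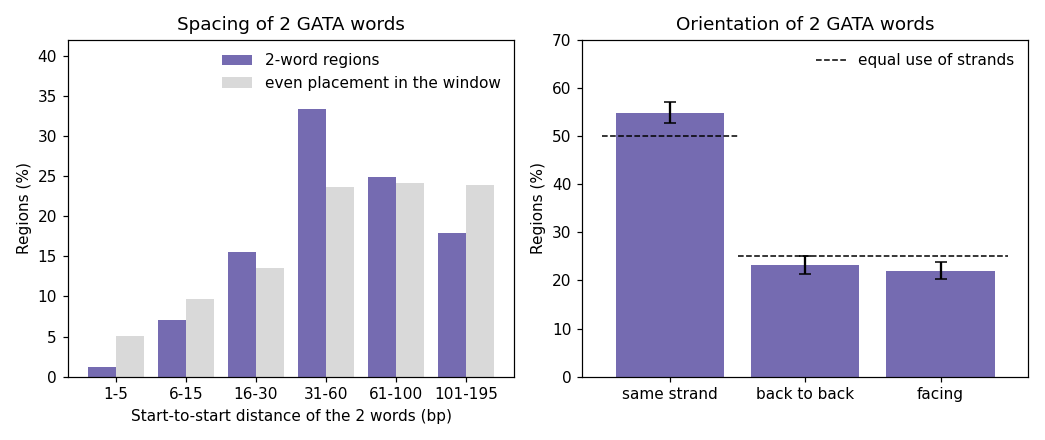
Left, the percent of the 1969 two-word regions by start-to-start distance of the words in bp, beside the percent that even placement in the window would give. Overlapping words lay only 5 bp apart, while the even reference also counts shorter distances that the word cannot take. Right, the percent by orientation with 95% Wilson intervals, and dashed lines at equal use of both strands. Distances of 31 to 60 bp and the same-strand orientation stand above their references.

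The medians of the 3 orientations lay close together. Same-strand pairs had library medians from 47.9 to 50.9, back-to-back pairs from 44.6 to 48.3 and facing pairs from 44.7 to 48.5. The highest-ranked pair was the TP53BP2 upstream region for the back-to-back orientation, the RHAG upstream region for the facing one and the MIR3681HG intron for the same strand. By distance, pairs 6 to 15 bp apart had the medians 36.4 and 43.1 with PBS and 38.6 and 43.3 with SCF, lower in each library than pairs 101 to 195 bp apart, at 51.6, 51.9, 50.5 and 49.9.

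Some members carried copies of the same sequence. Windows were linked when they had 20 or more 18-base runs in common, on either strand. By this measure 151 of 2432 repeated-word windows (6.21%, 95% Wilson interval 5.32 to 7.24) shared sequence with another distal window, compared with 6.95% of single-word and 6.40% of no-word windows. Among the members alone, 105 fell into 27 groups. The largest group had 20 members on 9 chromosomes, of which 9 held 3 words. A step of 37 bp occurred in 14 of them and a step of 50 bp in 8. The second group had 13 members on 10 chromosomes, all with 2 words, and 11 of these had a step of 53 bp. Examples are printed because they show whole arrangements of words being copied.
37 and 50 bp steps, near UGT2B11, chr4:70057647-70057763: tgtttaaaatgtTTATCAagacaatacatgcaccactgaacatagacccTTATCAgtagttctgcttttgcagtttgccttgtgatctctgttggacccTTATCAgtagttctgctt
50 bp step, near MAK, chr6:10854330-10854409: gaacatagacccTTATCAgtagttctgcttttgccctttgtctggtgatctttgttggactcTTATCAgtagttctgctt
53 bp step, LINC02663 intron, chr10:9867513-9867595: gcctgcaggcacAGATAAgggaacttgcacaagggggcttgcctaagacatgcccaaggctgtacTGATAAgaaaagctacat
53 bp step, near MED13, chr17:60221105-60221187: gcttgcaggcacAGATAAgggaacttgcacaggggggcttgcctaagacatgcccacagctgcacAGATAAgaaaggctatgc
53 bp step, chromosome X, chrX:4628756-4628838: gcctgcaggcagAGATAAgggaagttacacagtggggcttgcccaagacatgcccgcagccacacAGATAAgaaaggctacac

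The 3 printed sequences with the 53 bp step were identical at 73, 68 and 72 of 83 positions in their pairs. Their ranks nonetheless differed between copies and between libraries. The LINC02663 copy ranked 76.4 and 94.1 with PBS and 92.2 and 91.6 with SCF. The copy near MED13 ranked 66.3, 68.1, 77.7 and 70.8, and the chromosome X copy 89.5, 58.1, 43.9 and 64.2. Over the group, mean ranks ran from 15.7 to 88.6, with 5 of 13 called in all 4 libraries. In the group with 37 and 50 bp steps they ran from 5.42 to 75.9, with 9 of 20 called in all 4 libraries. The step of 53 bp was the most frequent same-strand distance in the whole class, with 28 regions, of which 12 shared sequence with another window. Reads from near-identical copies may not be placed uniquely, and the mapping filter for repeats was not examined.

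An E-box base triplet stood at a fixed distance upstream of many words. The triplet CTG, the 3' part of the E-box contacted by TAL1, preceded the GATA core by 9 bases at 8.11% of the 5400 words in repeated-word regions (95% Wilson interval 7.41 to 8.87), by 8 bases at 5.15% and by 10 bases at 3.85%. At the other 17 distances between 1 and 20 bases it was found at 1.94% to 2.96% of words. Single-word regions had the same maximum, at a higher level per word: 10.5% of 5509 words at 9 bases (9.71 to 11.3), 5.99% at 8 and 4.27% at 10. The words were alike in their first base, which was A in 60.98% of words in repeated-word regions and 61.9% in single-word regions. The base after the word was G in 38.7% and 41.3% of words.

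**Figure D3:**
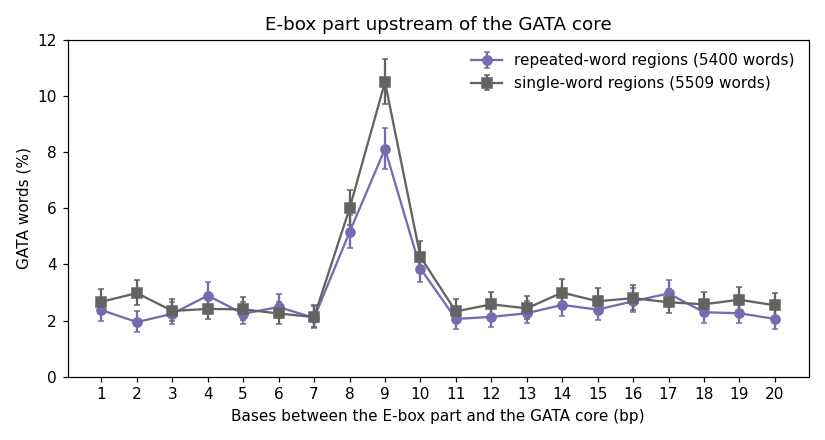
Percent of GATA words preceded by the E-box part CTG, against the number of bases between it and the GATA core, in repeated-word regions (5400 words) and single-word regions (5509 words), with 95% Wilson intervals. Both curves have a maximum at 9 bases, at 8.11% and 10.5%, over a level of about 2 to 3% elsewhere.

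Per region, the composite of CTG, 7 to 9 bases and GATA was present in 912 members (37.5%, 95% Wilson interval 35.6 to 39.4), in 25.6% of single-word regions, in 6.14% of regions with no word and in 14.4% of all distal regions without an AP-1 word. This composite includes the distance of 7 bases, which was at the level of the other distances (2.09% of words), and leaves out 10 bases. The share in members ran from 37.1% to 38.2% over the first 4 bins of GC content. Members were chosen to hold more words, 2.22 per region against 1 in single-word regions, which by itself raises a share counted per region. Per word, CTG was less frequent in members than in single-word regions. At 7 bases the shares were 2.09% and 2.12%, at 8 bases 5.15% and 5.99%, and at 9 bases 8.11% and 10.5%. Members with the composite had median ranks of 53.2 and 54.3 with PBS and 54.1 and 56.1 with SCF, and members without it 44.5, 46.3, 43.9 and 45.7. Every library thus had the composite members higher, and 56.1% of them were called in all 4 libraries compared with 43.2% of the rest. In the RHAG upstream region and the GRIN3A distal region, both words had CTG at 8 to 10 bases from the core.

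The CACCC-type word CCNCNCCC, the kind bound by KLF1 and related factors, was less frequent in members, at 15.5% (95% Wilson interval 14.1 to 17.0), than in single-word regions at 22.0% and in regions with no word at 30.2%. In the bins of GC content it ranged from 6.55% of members at the lowest GC to 43.5% at the highest, and in single-word regions from 7.53% to 56.6%. In the 3 bins between, members and single-word regions were close, at 14.38% and 14.41%, 25.6% and 27.8%, and 35.05% and 35.5%, so most of the difference between these classes was not seen at like GC content. Members with this word were called in all 4 libraries in 56.2% of cases and members without it in 46.6%. This contrast was not made at like GC content. The share of members called in all 4 libraries itself rose with GC, from 36.6% in the lowest bin to 78.3% in the highest.

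Members lay near many erythroid genes. A member was found within 50 kb of the start of 10 of 18 erythroid factor genes and of 11 of 17 genes of the red cell membrane and blood groups, whereas 2830 of 20136 protein-coding genes (14.1%) had one. The counts were 4 of 8 for iron uptake and transport, 3 of 19 for globin and heme synthesis and 1 of 11 for cytokine signalling. Single-word regions lay near 15 of 18, 13 of 17, 6 of 8, 11 of 19 and 7 of 11 genes in the same lists, beside 30.8% of all protein-coding genes. None of the globin genes had a member within 50 kb, although HBG1 had 3 single-word regions and HBE1 had 4. Regions with repeated words that held an AP-1 word or lay within 1 kb of a start are outside the class and were not counted here. RUNX1, a factor of blood cell development, had the highest number of members of the listed genes, at 3. The 33 members near listed genes were called in all 4 libraries in 66.7% of cases (95% Wilson interval 49.6 to 80.2), the others in 47.8%, and single-word regions near listed genes in 49.3%. The median ranks of the 33 members were lower than those of the other members in 3 of 4 libraries, at 44.7 and 50.1 with PBS and 39.5 and 49.98 with SCF, against 47.5, 49.4, 48.8 and 50.3.

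Sequences near red cell genes are given next because their values are described in the following paragraphs.
ALAS2 intron, chrX:55041506-55041624: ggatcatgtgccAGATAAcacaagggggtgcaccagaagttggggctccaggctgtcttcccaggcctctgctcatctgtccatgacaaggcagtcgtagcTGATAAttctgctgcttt
FECH intron, chr18:55250687-55250747: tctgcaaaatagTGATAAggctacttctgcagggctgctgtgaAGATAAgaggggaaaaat
GYPC intron, chr2:127431750-127431870: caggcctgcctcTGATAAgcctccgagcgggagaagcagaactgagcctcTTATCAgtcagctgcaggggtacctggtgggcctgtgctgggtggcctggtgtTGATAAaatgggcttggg
RHD intron, chr1:25606337-25606504: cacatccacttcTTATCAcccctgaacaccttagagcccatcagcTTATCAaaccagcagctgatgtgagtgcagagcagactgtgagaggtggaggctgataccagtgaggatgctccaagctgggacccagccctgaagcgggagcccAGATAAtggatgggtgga
RHCE intron, chr1:25739821-25739988: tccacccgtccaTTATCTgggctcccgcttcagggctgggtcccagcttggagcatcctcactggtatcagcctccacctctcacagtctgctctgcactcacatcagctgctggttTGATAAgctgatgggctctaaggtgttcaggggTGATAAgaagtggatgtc

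ALAS2 encodes the first and rate-limiting enzyme of heme synthesis in red cells. The ALAS2 intron region (chrX:55041261-55042163) held 2 words on the same strand, 5.30 kb downstream of the nearest annotated transcript start of ALAS2. It ranked 81.5 and 72.0 with PBS and 91.5 and 95.5 with SCF, so that both SCF libraries were above both PBS libraries, by a gap of 10.02 points. Fold enrichment was 11.8 and 9.72 with PBS and 14.3 and 14.9 with SCF. The log2 difference was 0.46 ± 0.13 (SE, n = 2 per treatment), which did not pass the test over all regions (limma, adjusted p = 0.646). The FECH intron, in the gene for the last enzyme of the same pathway, ranked 68.5 and 56.6 with PBS and 63.5 and 73.3 with SCF, and the groups overlapped.

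Blood group genes held several members. The GYPC intron, in the gene of glycophorin C, ranked 68.0 and 73.2 with PBS and 78.5 and 70.03 with SCF, and the GYPB intron 67.9, 72.6, 70.3 and 65.3, so that the treatments overlapped at both. The RHD intron and the RHCE intron hold near-identical sequence in opposite directions, with 166 of 168 bases the same between the printed stretches, and reads may be exchanged between them. The RHD intron ranked 73.4 and 72.4 with PBS and 78.03 and 81.3 with SCF, with both SCF libraries higher by a gap of 4.59 points. The RHCE intron ranked 87.2 and 85.1 with PBS and 65.9 and 86.8 with SCF, where the SCF libraries differed widely.

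Genes of nuclear regulators and of a survival protein were also in this set. The RUNX1 intron with 4 words ranked 79.4 and 83.4 with PBS and 77.5 and 86.4 with SCF, with overlapping groups. Upstream of CBFA2T3, which encodes the corepressor ETO2 of the GATA1 and TAL1 complex, a 3-word region ranked 88.1 and 81.2 with PBS and 66.3 and 68.7 with SCF. Both SCF libraries were thus below both PBS libraries, by a gap of 12.6 points, and the log2 difference of -0.39 ± 0.15 (SE) did not pass the test (limma, adjusted p = 0.683). A BCL2L1 intron, in the gene of the survival protein BCL-XL, ranked 61.9, 50.1, 45.5 and 67.5.

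**Figure D4:**
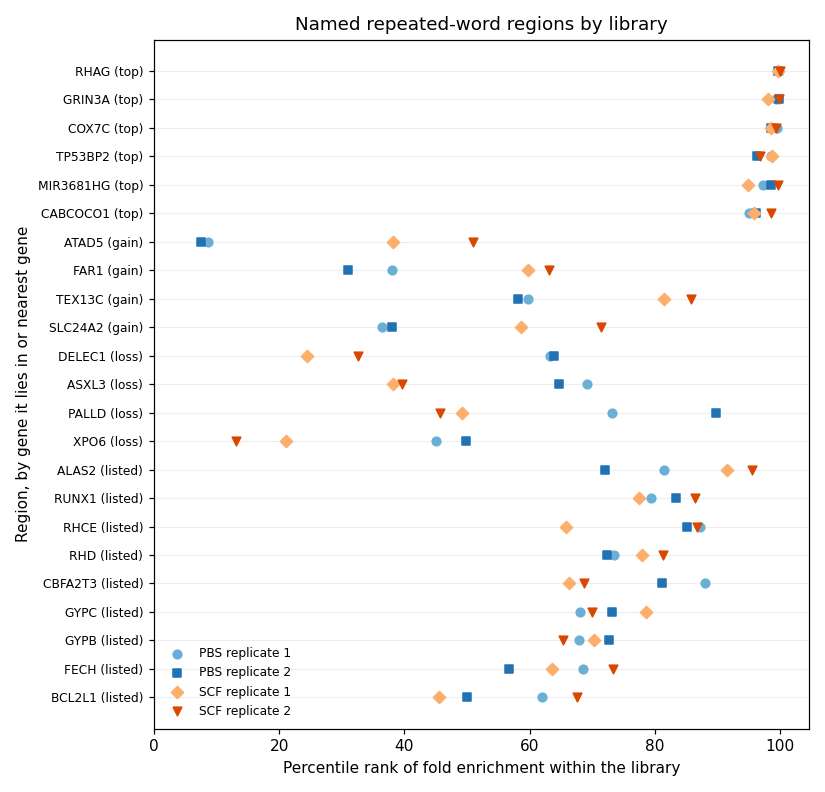
Percentile rank of fold enrichment within each library (x axis) of named repeated-word regions (y axis, by gene), one symbol per library. The 6 top regions sit above 94 in all libraries; regions marked gain or loss have both SCF libraries on one side of both PBS libraries.

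The comparison of SCF with PBS asks whether 1 h of Kit activation moved accessibility at repeated GATA words. No member passed the test of fold enrichment. Among 22355 regions called in all 4 libraries limma called 0 (0%) at an adjusted p under 0.05, and among the 1169 members it also called 0. At an unadjusted p under 0.05 it gave 1537 regions, of which 785 were higher with SCF (3.51%) and 752 lower (3.36%). For members the counts were 63 higher (5.39%) and 59 lower (5.05%), and for single-word regions 152 higher (7.23%) and 83 lower (3.95%). The lowest adjusted p of a member was 0.533. The median log2 difference over members was 0.01 and that over all regions was 0.00, with a median SE of 0.206 for members. Fits without SCF replicate 1 or without SCF replicate 2 had a lone SCF library whose spread could not be measured, so their calls are not given. In these fits the lone SCF library was assumed to vary like the PBS libraries.

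The rank difference between members and single-word regions did not separate the treatments, although other measures did. The difference in median rank was 7.83 ± 0.694 with PBS and 8.001 ± 0.645 with SCF (SD, n = 2), so SCF minus PBS was 0.173 (two-sided exact permutation p = 0.667; the smallest possible is 0.33). The difference in median fold enrichment was 0.685 and 0.734 with PBS and 0.743 and 0.873 with SCF. These values did not overlap (two-sided exact permutation p = 0.33, the smallest possible). Words were also counted at each library's own summits, in distal peaks without an AP-1 word. Repeated words were present in 12.28% and 12.28% of these peaks with PBS and in 12.39% and 12.49% with SCF, again without overlap. The difference of 0.162 percentage points was smaller than the width of each library's Wilson interval, and the exact permutation p was 0.33, the smallest possible. Single words were present in 25.53% and 25.58% of these peaks with PBS and in 26.04% and 26.31% with SCF. That difference of 0.620 points was also without overlap. Single libraries of different treatments differed in both directions, which cancels in the means. The median of SCF minus PBS mean rank was -0.187 points over members called in all 4 libraries. Between single libraries, it ran from -6.46 points for SCF replicate 1 minus PBS replicate 2 to 5.68 for SCF replicate 2 minus PBS replicate 1. These members ranked a median of 7.56 points higher in SCF replicate 2 than in SCF replicate 1. They ranked 4.13 points higher in PBS replicate 2 than in PBS replicate 1.

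A further difference without overlap was found in how much more often members were called than single-word regions, which was less with SCF. With PBS, 68.3% and 79.98% of members and 60.1% and 71.2% of single-word regions were called, an excess of 8.21 and 8.82 percentage points. With SCF, 59.2% and 75.9% of members and 54.7% and 70.4% of single-word regions were called, an excess of 4.46 and 5.55 (difference -3.51, exact permutation p = 0.33, the smallest possible). Member peaks were also wider than single-word peaks, by 51 and 53 bp with PBS and by 32.5 and 35 bp with SCF (exact permutation p = 0.33). The median width of all peaks in the lists was 597 and 602 bp with PBS and 581 and 548 bp with SCF, and the part of this in both differences was not tested.

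Rank changes of at least 10 points with no overlap of the treatments were counted beside the share over all regions. Members gained rank with SCF in 29 of 1169 cases (2.48%, 95% Wilson interval 1.73 to 3.54), beside 2.56% of all regions called in all 4 libraries and 5.37% of single-word regions. They lost rank in 44 cases (3.76%, 2.82 to 5.02), beside 3.04% of all regions and 3.90% of single-word regions. A further 31 of 2432 members (1.27%) had a peak in each SCF library and in no PBS library. The shares were 1.65% of all regions, 1.94% of single-word regions and 2.20% of regions with no word. The reverse pattern was found in 82 members (3.37%, 2.72 to 4.17). It was found in 2.37% of all regions, 2.96% of single-word regions (2.54 to 3.44) and 3.17% of regions with no word (2.90 to 3.48). Leaving out a library moved each of these 4 counts by more than 1.5 times: without SCF replicate 1 there were 221 gains and 119 losses, without SCF replicate 2, 72 and 269, without PBS replicate 1, 82 and 159, and without PBS replicate 2, 190 and 100. In the same order, members found with SCF only and with PBS only were 244 and 132, 86 and 241, 53 and 351, and 92 and 175. With a library left out the rule is easier to meet for any region. The shares over all regions were not computed for these settings, so the counts are not read as a trait of members.

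**Figure D5:**
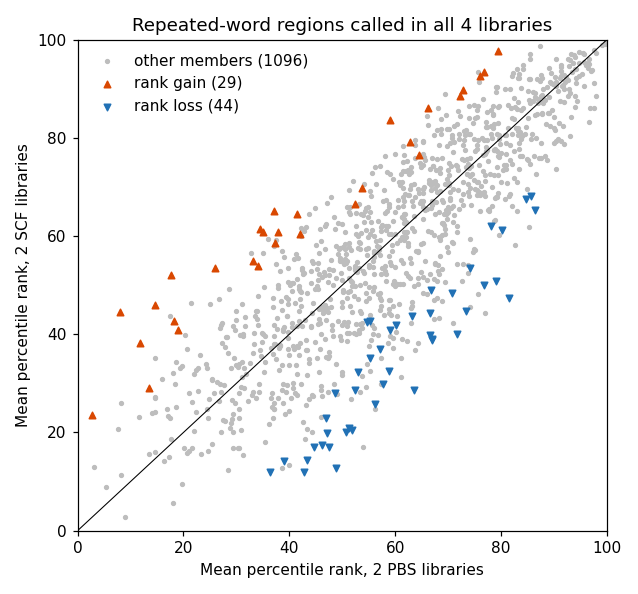
Mean percentile rank of each repeated-word region called in all 4 libraries in the 2 PBS libraries (x axis) and the 2 SCF libraries (y axis), with the line of equality. Triangles mark the 29 rank gains and the 44 rank losses; the cloud of other members lies on both sides of the line.

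Of the 4 largest gains and the 4 largest losses, 2 of each are shown with their sequence. The words of the printed gains faced each other and those of the printed losses lay on the same strand, whereas among the others FAR1 had a same-strand pair, XPO6 a facing pair and ASXL3 a back-to-back pair.
ATAD5 intron (gain), chr17:29175232-29175276: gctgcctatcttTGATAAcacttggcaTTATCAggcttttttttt
chromosome X intergenic (gain), chrX:124532905-124532969: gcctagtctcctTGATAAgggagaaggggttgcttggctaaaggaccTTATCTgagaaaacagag
DELEC1 intron (loss), chr9:118158553-118158607: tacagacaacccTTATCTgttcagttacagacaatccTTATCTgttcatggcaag
PALLD intron (loss), chr4:169490288-169490347: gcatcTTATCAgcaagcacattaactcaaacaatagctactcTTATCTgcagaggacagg

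The largest gain was in an intron of ATAD5, a gene of the replication clamp unloader, where the rank was 8.57 and 7.45 with PBS and 38.2 and 50.9 with SCF. Fold enrichment there was 3.91 and 3.60 with PBS and 6.17 and 6.90 with SCF, a log2 difference of 0.77 ± 0.22 (SE; limma, adjusted p = 0.646). The intergenic region on chromosome X, 79.2 kb from TEX13C, ranked 59.8 and 58.1 with PBS and 81.5 and 85.8 with SCF. An intron of FAR1, a fatty acyl-CoA reductase gene, ranked 38.004 and 31.02 with PBS and 59.7 and 63.1 with SCF. Upstream of SLC24A2, a cation exchanger gene, a 3-word region ranked 36.4 and 37.98 with PBS and 58.7 and 71.4 with SCF. In these 4 regions both SCF values exceeded both PBS values by at least 20.7 points.

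The largest loss was in an intron of DELEC1, at 63.2 and 63.9 with PBS and 24.5 and 32.6 with SCF, a log2 difference of -0.73 ± 0.21 (SE; limma, adjusted p = 0.646). Its words, 25 bp apart, lie on the same strand in a stretch that repeats itself. An intron of ASXL3 ranked 69.1 and 64.7 with PBS and 38.2 and 39.7 with SCF. An intron of PALLD, the gene of the actin-binding protein palladin, ranked 73.2 and 89.9 with PBS and 49.1 and 45.7 with SCF, and an intron of XPO6, an exportin gene, 45.1, 49.9, 21.1 and 13.0. Adjusted p-values from limma for these 4 regions ranged from 0.571 to 0.688.

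Of the regions called with 1 treatment only, the 3 of highest mean rank per treatment are given. The SCF-only member of highest mean rank, in an intron of NOL10, a nucleolar protein gene, ranked 49.1 and 47.3. Those in an intron of ICA1 and near NDST1, an enzyme gene of heparan sulfate synthesis, ranked 50.4 and 30.6, and 23.3 and 55.3. The PBS-only members of highest mean rank lay in an intron shared by CMSS1 and FILIP1L, at 61.6 and 54.8, near GPR173, at 51.6 and 58.1, and in an intron of a gene without a symbol on chromosome 2, at 59.8 and 47.5.

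By number of words, gains and losses among regions called in all 4 libraries were 26 and 35 of 934 with 2 words, 2 and 7 of 200 with 3 words, and 1 and 2 of 35 with 4 or 5 words. The median of SCF minus PBS mean rank was 0.277, -0.923 and -4.52 points in these 3 sets. Median GC content also fell, from 43.3% with 2 words to 40.8% with 3 and 40.3% with 4. In the GC bins, the same median over members was -3.21 points at the lowest GC and 2.33 at the highest. Over single-word regions it was -1.86 and 2.22, and over regions with no word -3.00 and -0.890. The part of GC content in the values by number of words was not tested. The median difference between the SCF replicates was 9.46 points for 3 words and 9.29 for 4 or 5 words, and that between the PBS replicates 3.57 and 4.80.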

How the data were processed

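ATAC-seq peak lists of 4 sgControl libraries of HUDEP-2 cells were analysed, 2 with PBS and 2 with SCF. The authors sequenced the libraries, aligned reads with Bowtie2 (per the labels, with bcl2fastq and SAMtools; versions and the peak caller are not given in the sources used here) and called peaks per library, without pooling. Each deposited list holds a fold enrichment (a ratio to local background), the −log10 of the p-value and q-value, and a whole-number score, which was not used. The highest q-value was 0.0497, so weaker peaks had been removed. The labels' processing notes name hg38 and the file headers hg19. Of the 22355 regions called in all 4 libraries, 44.7% lay within 1 kb of an end of a protein-coding gene on GRCh37 and 9.16% with ends from GRCh38, so coordinates were read as hg19. Peak names inside the lists carry other replicate numbers than the labels, and the labels were followed. The study's methods call the libraries biological duplicates, without saying whether they came from separate cultures, so p-values measure the spread between these libraries.

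Regions were merged at 1 bp of overlap, the summit came from the peak of highest rank, and starts came from GENCODE release 44 lifted to GRCh37. Ranks are percentiles of fold enrichment within a list. The members and lists were chosen with earlier results of these data known. Tests were exact permutations over libraries and limma 3.58.1 (R 4.3.3) on log2 fold enrichment after cyclic loess, over all regions called in all 4 libraries, with Benjamini-Hochberg adjustment. Word search and limma were tested on simulated data. Intervals are 95% Wilson intervals. Named members were the 6 with most words, the 6 of highest mean rank, the 4 largest gains and losses, 3 called with each treatment only, up to 10 within 50 kb of a listed erythroid gene and the top member per orientation. Members that share sequence were printed after their values were seen. The 4 sgEGR1 samples were not analysed here, and the lymphoid markers and 1 of the sequences of a group are not reported here. The alternatives covered windows, words, distance limits, peak thresholds, normalization and leaving out each library.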

Additional observations from a re-analysis of the deposited data

How the results depend on the processing

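The rank difference between repeated- and single-word regions stayed positive in all 17 alternatives, from 4.70 points in regions called in all 4 libraries to 9.43 with AGATAG and TGATAG also counted as words. The excess in the share called in all 4 libraries was 7.40 points with words within 50 bp, 17.04 within 5 bins of GC content, and 7.24 to 10.02 when a library was left out. SCF minus PBS for the rank difference reversed to -0.132 with overlapping words counted once, -0.555 with AGATAG and TGATAG added, -1.26 at 3 kb, -0.640 with −log10 q of at least 5, -0.897 with ranks by −log10 p and -1.85 in regions called in all 4 libraries, and ran from -0.586 to 1.17 when a library was left out. SCF minus PBS for the share of peaks with repeated words reversed to -0.222 with words within 150 bp. The cause was not tested for these changes.

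Rank gains and losses were 11 and 14 with words within 50 bp, 91 and 101 at a gap of 5 points, and 5 and 10 at 20 points. Gains were 51 with words within 150 bp, 72 with AGATAG and TGATAG added and 17 with ranks by −log10 p. SCF-only and PBS-only members were 6 and 28 within 50 bp, 49 and 126 within 150 bp, and 49 and 131 with the added words. The wider window gave 3614 members, the narrower 795 and the added words 3919, so these counts change with the class itself. Leaving out a library gave 72 to 221 gains, 100 to 269 losses, 53 to 244 SCF-only and 132 to 351 PBS-only members, with fewer libraries to separate, and 0 to 9 members called by limma. No member was called under the replicate block, median centring, quantile normalization or a filter on mean fold enrichment. The deviations of same-numbered libraries after loess correlated at 0.011 over all regions and 0.039 over members. Loess removes library-wide shifts, so these values do not decide whether the numbers pair the libraries. With the block SCF minus PBS was 0.173 for the rank difference, and limma called 1 region, not a member.

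Without windows that share sequence, an alternative chosen after seeing the data, the rank difference was 8.40 points, with 26 gains and 40 losses among 2281 members. Peak lists without read totals limit all of these values: a site under the threshold has no value, and the exact permutation test of 2 libraries against 2 gives no p under 0.33.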

Other observations

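Other words differed in how they were spread over the classes. The E-box CANNTG was present in 71.6% of repeated-word windows, 70.6% of single-word windows and 67.1% of windows with no GATA word. The RUNX word TGTGGT was present in 17.8%, 16.7% and 14.5%, and the STAT word TTCNNNGAA in 6.58%, 6.64% and 5.74%. The EGR word GCGTGGG was found in 17 repeated-word windows (0.699%), against 1.14% of single-word windows and 2.60% of windows with no word, and the ETS word CCGGAAG in 15 (0.617%), against 0.871% and 1.75%. In regions called in all 4 libraries, the summits of the libraries lay within a median of 109 bp of each other in repeated-word regions, 125 bp in single-word regions and 139 bp in regions with no word, and within 50 bp in 14.5%, 12.3% and 10.8% of them.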
